A study of Sus scrofa with 6 samples.

Results

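The 10 genes described here carry the oxidation of fatty acids in mitochondria: the carnitine palmitoyltransferases CPT1A, CPT1B and CPT2, the acyl-CoA dehydrogenases ACADVL and ACADM, the trifunctional protein subunits HADHA and HADHB, and the regulators PPARA, PPARGC1A and PDK4. They were taken by gene symbol, and all 10 were found among the 30477 genes measured in the abdominal aorta of male Wuzhishan pigs, a miniature breed. The NC group (n = 3) received a normal chow diet and the HFCF group (n = 3) a diet high in fat, cholesterol and fructose, each for 6 months. The labels put the age of all pigs at 3 to 4 months, while the methods give an older age at purchase. Neither source states that any pig carried a genetic change, or whether the fat around the vessel was removed. The comparison asks how aortas that developed atherosclerosis on the HFCF diet differed in these transcripts from those of chow-fed pigs.

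Long-chain fatty acids cannot cross the inner mitochondrial membrane on their own. CPT1 at the outer membrane joins them to carnitine, a translocase carries the acylcarnitine inwards, and CPT2 returns the acyl group to coenzyme A. The acyl-CoA is then shortened in a repeated spiral of dehydrogenation, hydration, a further dehydrogenation and thiolysis. PPARA is a nuclear receptor that binds fatty acids and activates many genes of this pathway, PPARGC1A is a coactivator of such receptors and of mitochondrial biogenesis, and PDK4 inhibits pyruvate dehydrogenase and so favours fatty acids over glucose as fuel. In the artery wall, smooth muscle cells, endothelium, macrophages and adipocytes all use these enzymes to differing degrees.

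Expression is given as FPKM, the fragments mapped to a gene per length of its exons and per sequencing depth, so that a value still depends on all other transcripts in the same library. The FPKM values summed to between 272207 and 287141 in the NC libraries and to between 330222 and 338690 in the HFCF libraries. The absolute depth is not known from the file, and the spacing of low values put the depth of the other libraries at 1.03 to 1.37 times that of NC1. Differences are log2 differences, HFCF minus NC, of log2(FPKM + 0.1), tested with limma and adjusted by the Benjamini-Hochberg method over the 15384 genes whose mean over the 6 libraries reached 0.1 FPKM. The median log2 difference of all these genes was 0.32. The labels do not state that the 3 samples of a group were separate animals, so p-values measure the spread between these samples, which are called pigs here after the methods.

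Of the 10 genes, 9 passed the filter and 3 of these had an adjusted p under 0.05 in limma: PPARA and HADHA were lower and ACADM was higher in the HFCF group. The share of all tested genes that passed the same threshold was 28.9%, with 22.8% higher and 6.16% lower in the HFCF group. The groups did not overlap in 5 of the 9 tested genes (ACADM and CPT1B higher, PPARA, HADHA and CPT2 lower), where 48.2% of all tested genes did not overlap, 36.1% being higher and 12.1% lower. An unadjusted p under 0.05 was reached by the same 3 genes, against 42.3% of all tested genes. The thresholds of the study, a fold above 2 or below 0.5 with an unadjusted p under 0.05, were passed by 1 of the 9, PPARA, against 25.5% of all tested genes. As shares of the 9 tested genes, 33.3% had an adjusted p under 0.05 in limma, with 11.1% higher and 22.2% lower. The higher share lay below and the lower share above that of all tested genes, but they rest on 1 and 2 genes. With the values as deposited, the median log2 difference of the 9 genes was 0.04, which lies 0.28 under the median of all genes. Summed over the 10 genes, expression was 167.3 to 175.3 FPKM in the NC pigs and 152.5 to 185.0 FPKM in the HFCF pigs, so the totals overlapped while single genes moved in both directions.

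**Figure D1:**
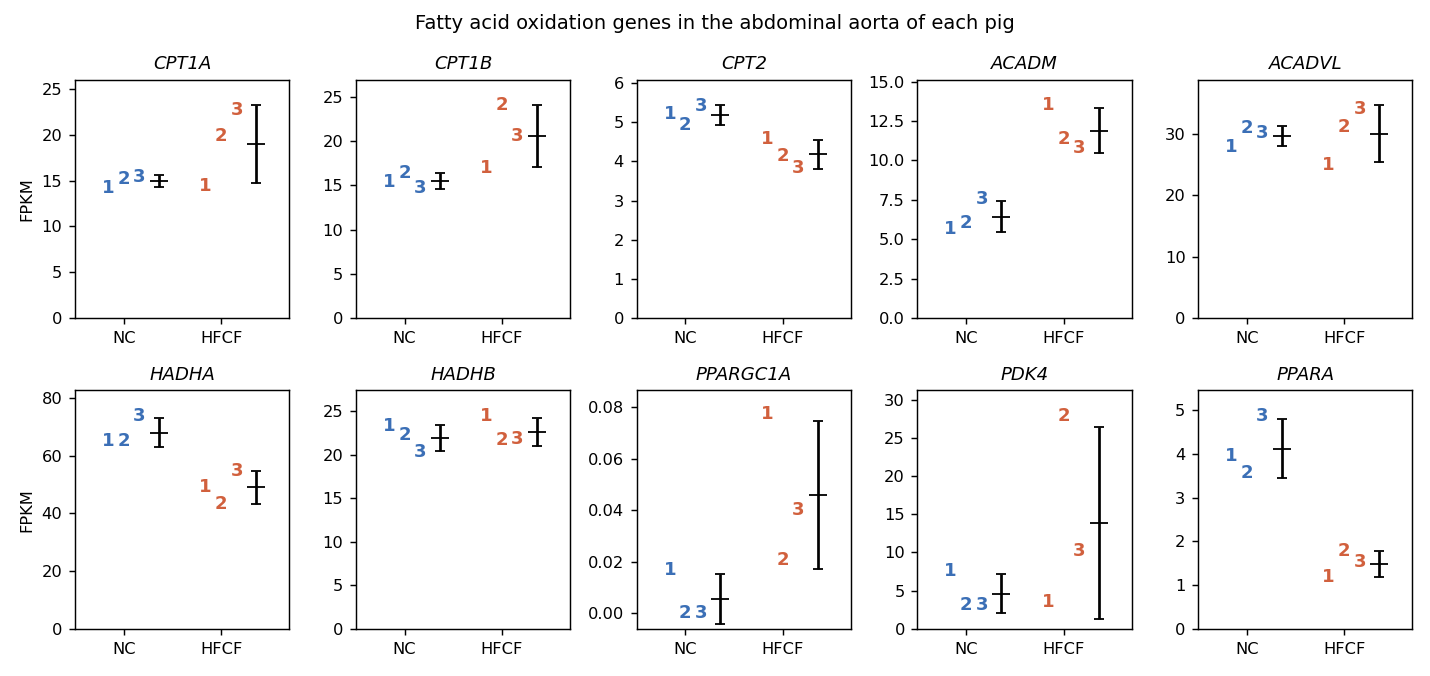
FPKM of the 10 fatty acid oxidation genes (vertical axes, each on its own linear scale starting at 0, or just below it for PPARGC1A) in the NC and HFCF groups. Each numeral is 1 pig, placed at its value, and the black bar is the mean ± SD (n = 3). PPARA, HADHA and CPT2 lie lower in all 3 HFCF pigs and ACADM, CPT1B and PPARGC1A higher, while PDK4 spreads from 3.49 to 27.9 FPKM within the HFCF group.

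PPARA, the nuclear receptor of the pathway, showed the lowest adjusted p of the 9 tested genes. It was 3.94, 3.55 and 4.87 FPKM in NC pigs 1 to 3 and 1.18, 1.77 and 1.52 FPKM in HFCF pigs 1 to 3. Every HFCF value lay below every NC value by a margin wider than the range of either group. PPARA (ENSSSCG00000000006) had a mean of 4.12 ± 0.67 FPKM under chow and fell to 1.49 ± 0.30 FPKM (SD, n = 3 each), which is 2.76-fold lower, with a log2 difference of -1.41 (standard error 0.24, adjusted p = 0.00672, limma). The difference lay between -1.96 and -1.04 over 15 alternatives in processing, and its adjusted p (limma) stayed between 0.00402 and 0.0295.

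PPARGC1A, the coactivator, was at the lower limit of measurement. It was 0.017 FPKM in NC1 and was listed at 0 in NC2 and NC3, and it was 0.077, 0.021 and 0.040 FPKM in HFCF pigs 1 to 3. The HFCF values were the higher ones, but values of this size can rest on very few fragments, and PPARGC1A did not pass the filter on low values. Fitted without that filter, the log2 difference of PPARGC1A was 0.45 with an adjusted p of 0.137 (limma).

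PDK4, the kinase that switches off pyruvate dehydrogenase, varied more among pigs than any other tested gene of the 9. It was 7.56, 3.13 and 3.19 FPKM in NC pigs 1 to 3 and 3.49, 27.9 and 10.16 FPKM in HFCF pigs 1 to 3. HFCF1 lay within the NC range and below NC1, while HFCF2 and HFCF3 lay above all NC pigs, and the highest HFCF value was 7.99 times the lowest. The log2 difference was 1.22 (95% confidence interval -0.49 to 2.93, adjusted p = 0.245, limma), so the step in the mean from 4.63 to 13.8 FPKM was not separable from the spread. Without HFCF1 the log2 difference was 1.97 and its adjusted p 0.0496 (limma), and without HFCF2 it was 0.48.

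The carnitine palmitoyltransferases differed little between the diets. CPT1A, the form best known from liver and most other tissues, was 14.2, 15.1 and 15.4 FPKM in the NC pigs and 14.4, 19.8 and 22.7 FPKM in the HFCF pigs. HFCF1 lay within the NC range, the other HFCF pigs lay above it, and the log2 difference was 0.32 (95% confidence interval -0.13 to 0.77, adjusted p = 0.250, limma). CPT1B, the form of heart and skeletal muscle, was 15.4, 16.4 and 14.7 FPKM in the NC pigs and 16.99, 24.01 and 20.6 FPKM in the HFCF pigs. The groups of CPT1B did not overlap, though HFCF1 exceeded NC2 by little, and the log2 difference was 0.39 (95% confidence interval -0.0012 to 0.78, adjusted p = 0.119, limma). In RefSeq's annotation of the Sscrofa11.1 assembly CPT1B lies directly beside CHKB, so reads that run from that gene into CPT1B cannot be told apart from its own.

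CPT2, which works on the inner side of the membrane, went the other way. It was 5.22, 4.92 and 5.41 FPKM in the NC pigs and 4.59, 4.13 and 3.85 FPKM in the HFCF pigs. All HFCF values lay below all NC values, but the step was small, from 5.19 ± 0.25 to 4.19 ± 0.37 FPKM (SD, n = 3 each). The log2 difference of CPT2 was -0.30 (standard error 0.16, adjusted p = 0.202, limma). Median-ratio scaling gave -0.65 (adjusted p = 0.0258, limma) and quantile normalization -0.72 (adjusted p = 0.0212, limma).

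The acyl-CoA dehydrogenases open each turn of the spiral, ACADVL on very long chains and ACADM on chains of medium length. ACADM (ENSSSCG00000003776) was 5.69, 6.07 and 7.58 FPKM in the NC pigs and 13.5, 11.4 and 10.8 FPKM in the HFCF pigs. The lowest HFCF value stood clear of the highest NC value. ACADM had a mean of 6.44 ± 1.004 FPKM under chow and rose to 11.9 ± 1.42 FPKM (SD, n = 3 each), which is 1.85-fold higher, with a log2 difference of 0.88 (standard error 0.18, adjusted p = 0.0125, limma). With median-ratio scaling the adjusted p of ACADM was 0.0563 and with rescaling to TPM (each library brought to the same sum) it was 0.0534 (limma), so under these scalings the call was lost while the difference kept its sign. ACADVL was 27.8, 30.9 and 30.2 FPKM in the NC pigs and 25.0, 31.1 and 34.0 FPKM in the HFCF pigs. The NC values of ACADVL lay inside the HFCF range, with a log2 difference of 0.01 (95% confidence interval -0.36 to 0.38, adjusted p = 0.971, limma).

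HADHA and HADHB encode the alpha and beta subunits of the mitochondrial trifunctional protein, which carries out the later steps of the spiral on long chains. They lie next to each other among the protein-coding genes of RefSeq's Sscrofa11.1 annotation. HADHA (ENSSSCG00000008571), the most abundant of the 10 genes, was 65.0, 64.9 and 73.7 FPKM in the NC pigs and 48.9, 43.3 and 54.7 FPKM in the HFCF pigs. All HFCF values lay below all NC values. HADHA had a mean of 67.9 ± 5.03 FPKM under chow and fell to 49.0 ± 5.69 FPKM (SD, n = 3 each), with a log2 difference of -0.47 (standard error 0.14, adjusted p = 0.0461, limma). This call was close to the threshold: leaving out any 1 of the 6 libraries gave adjusted p-values of 0.0513 to 0.147 (limma) and log2 differences of -0.56 to -0.39. HADHB was 23.3, 22.2 and 20.3 FPKM in the NC pigs and 24.4, 21.6 and 21.8 FPKM in the HFCF pigs. The groups of HADHB overlapped in part, with a log2 difference of 0.04 (95% confidence interval -0.27 to 0.36, adjusted p = 0.834, limma).

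Ratios between enzymes within a library do not change when the library is rescaled, and 4 such ratios were compared. The ratio of HADHA to HADHB was 2.79, 2.92 and 3.62 under chow, against 2.003, 2.003 and 2.51 under the HFCF diet. It was lower in all 3 HFCF pigs, by 0.52 on the log2 scale (exact two-sided permutation p = 0.1, adjusted over the 4 ratios 0.133). With 3 pigs against 3, 0.1 is the smallest p this exact test allows. The ratio of ACADM to ACADVL was 0.204, 0.196 and 0.251 under chow and 0.541, 0.367 and 0.317 under the HFCF diet, a log2 difference of 0.88 at the same smallest p of 0.1 (exact permutation). The ratio of CPT2 to CPT1A was 0.367, 0.325 and 0.351 under chow and 0.319, 0.208 and 0.169 under the HFCF diet, a log2 difference of -0.63 (exact permutation p = 0.1). These 3 ratios kept their groups apart, HFCF1 being close to the NC range for CPT2 to CPT1A and farthest from it for ACADM to ACADVL. The ratio of the CPT1 forms, CPT1A to CPT1B, was 0.966 ± 0.075 in the NC group and 0.925 ± 0.155 in the HFCF group (SD, n = 3 each), with overlapping values (exact permutation p = 0.6). The values of both forms per length were thus similar under either diet, with the limit that reads from CHKB may be counted in CPT1B.

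**Figure D2:**
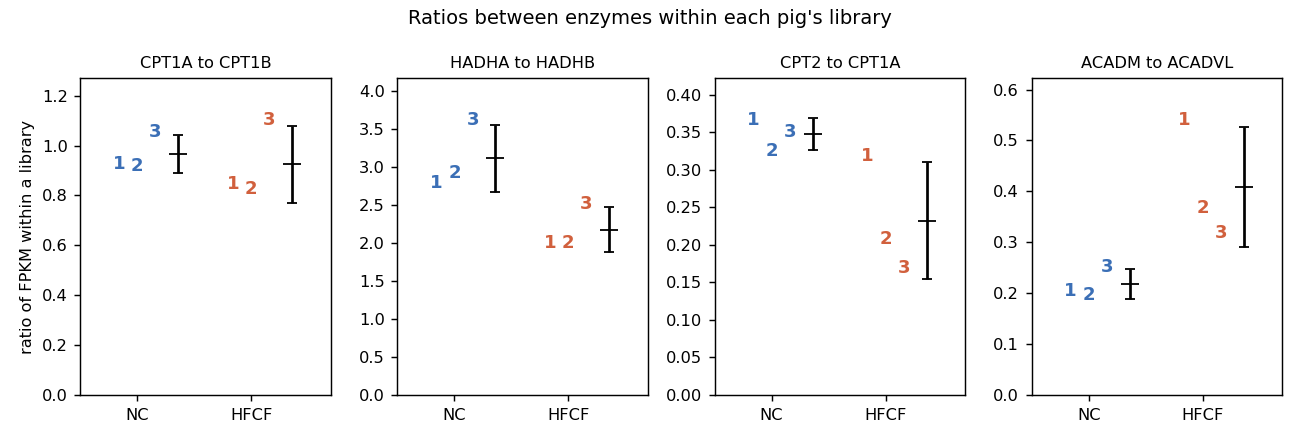
Ratio of the FPKM of paired enzymes within each library (vertical axes, linear, from 0) in the NC and HFCF groups. Numerals are pigs and black bars the mean ± SD (n = 3). HADHA to HADHB and CPT2 to CPT1A are lower and ACADM to ACADVL higher in every HFCF pig, while CPT1A to CPT1B overlaps.

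Median-ratio scaling and rescaling to TPM each lowered the log2 differences of these genes by similar amounts, and quantile normalization lowered them by unequal amounts. The median log2 difference of all tested genes was 0.32 as deposited, -0.01 with median-ratio scaling, -0.07 with quantile normalization and 0.07 with rescaling to TPM. Relative to that median, PPARA stood at -1.73 as deposited and at -1.88 to -1.74 under the 3 scalings, HADHA at -0.80 as deposited and -0.82 to -0.48 under the scalings, and ACADM at 0.56 as deposited and 0.54 to 0.67 under the scalings. CPT2 stood at -0.63 as deposited and at -0.64 under each of the scalings. The median of the 9 genes stood at -0.28 as deposited, -0.30 with median-ratio scaling, -0.04 with quantile normalization and -0.29 with rescaling to TPM. HADHB and ACADVL had positive differences as deposited and negative ones under all 3 scalings, and CPT1A turned to -0.04 with median-ratio scaling. PPARA and HADHA were called lower under each of the 3 scalings, whereas ACADM was called higher only with quantile normalization (adjusted p = 0.0407, limma).

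**Figure D3:**
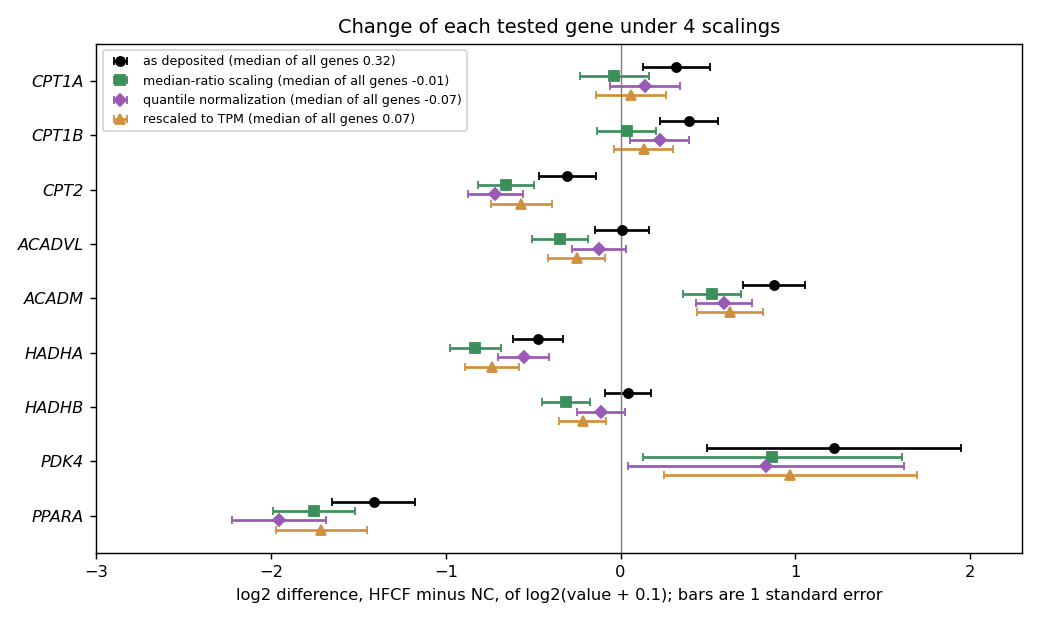
Log2 difference, HFCF minus NC, of log2(value + 0.1) (horizontal axis) for the 9 tested genes with the values as deposited and under 3 other scalings. Bars are 1 standard error from limma. PPARA and HADHA stay left of 0 and ACADM and PDK4 right of 0 under each scaling, while HADHB and ACADVL cross from just above 0 to below it.

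FPKM is given per length, so levels can be set in order between genes. In the NC group the order was HADHA (67.9 FPKM), ACADVL (29.6 FPKM), HADHB (21.9 FPKM), CPT1B (15.5 FPKM), CPT1A (14.9 FPKM), ACADM (6.44 FPKM), CPT2 (5.19 FPKM), PDK4 (4.63 FPKM), PPARA (4.12 FPKM) and PPARGC1A (0.0056 FPKM). Neighbours whose NC values overlapped were CPT1B with CPT1A, CPT2 with PDK4, and PDK4 with PPARA. In the HFCF group the upper and lower ends of the order were the same, and PDK4 (13.8 FPKM) and ACADM (11.9 FPKM) lay between CPT1A and CPT2. There HADHB overlapped CPT1B, CPT1B overlapped CPT1A, CPT1A overlapped PDK4 and PDK4 overlapped ACADM, while ACADM stood clear of CPT2. The coefficient of variation was larger in the HFCF than in the NC group for CPT1A (22.3% against 4.16%), CPT1B (17.1% against 5.76%) and ACADVL (15.4% against 5.43%), and smaller for ACADM (11.9% against 15.6%), differences in spread that were not tested. For CPT1A and ACADVL HFCF1 was the lowest of its group and HFCF3 the highest of all 6 pigs.

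Beyond the symbols used to choose them, the genes share deposited annotation. KEGG's fatty acid degradation pathway was assigned to 7 of the 10 genes (all except PPARA, PPARGC1A and PDK4), and the PPAR signaling pathway to 5 of them (CPT1A, CPT1B, CPT2, ACADM and PPARA). Among all 34 tested genes annotated to fatty acid degradation, 6 were called higher and 2 lower by limma's adjusted p under 0.05, where all genes had 22.8% and 6.16%, with a median log2 difference of 0.04. Among the 58 tested genes of PPAR signaling, 12 were called higher and 5 lower, with a median log2 difference of 0.17. Both medians lay below the 0.32 of all genes.

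The gene whose 6 values ran most like those of each member was sought among 10092 named genes whose mean reached 1 FPKM, by the root mean square difference of centred log2 values. LRP5 was nearest to PPARA (0.086), PRRC2A to HADHA (0.039) and TTC21B to ACADM (0.053). ZNF777 was nearest to CPT1A (0.037), CHCHD6 to CPT1B (0.046), APMAP to CPT2 (0.054), TRMT2A to ACADVL (0.030) and ANAPC1 to HADHB (0.054). PDK4 had no close match, the nearest being MAPKAPK5 at 0.487. With 6 points and so many candidates, close matches arise readily, and these are given as a description only.

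The wider pathway was followed with 90 further genes in 12 groups by role, of which 84 were found in the file and 77 passed the filter. An adjusted p under 0.05 in limma was reached by 19 of the 77, 14 of them higher (18.2% of those tested, against 22.8% of all genes) and 5 lower (6.49%, against 6.16%). With median-ratio scaling the split was 3 higher and 10 lower, with quantile normalization 2 and 10, and with rescaling to TPM 3 and 7. The split over all tested genes moved as well. It was 3505 higher and 948 lower as deposited, 2035 and 1982 with median-ratio scaling, 1748 and 1782 with quantile normalization and 2146 and 1539 with rescaling to TPM. The balance of higher and lower calls thus depended on the scaling, in these groups and over all genes. All 3 scalings kept the calls of CD36, CRAT, ACACA, PDK2, PDK3 and NCOR1, and that of VNN1, which passed the filter through its HFCF values alone. CRAT, ACACA, PDK2 and PDK3 were called under all 15 alternatives.

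**Figure D4:**
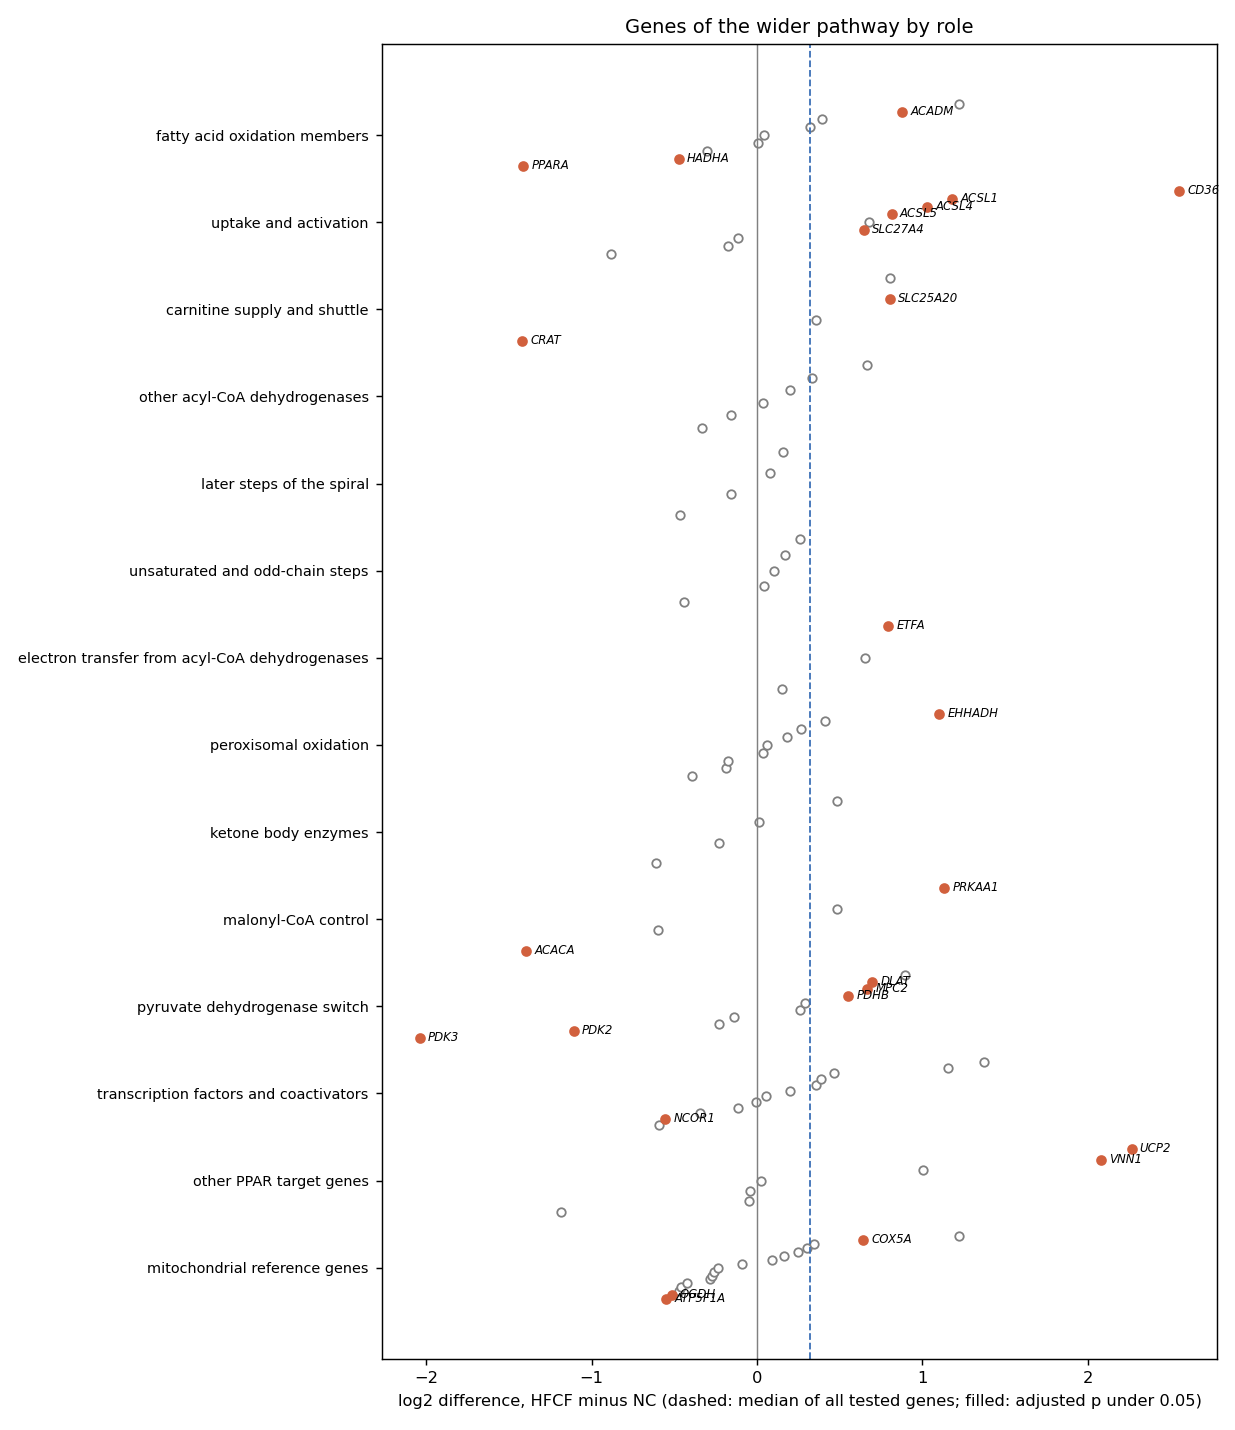
Log2 difference, HFCF minus NC, of each tested gene (horizontal axis) in the 10 fatty acid oxidation genes, the 12 groups of the wider pathway and a reference group of mitochondrial genes (vertical axis; height within a group only separates the points). Filled points with names had an adjusted p under 0.05 in limma, and the dashed line is the median of all tested genes, 0.32. Uptake and activation holds 5 of the 14 higher calls of the wider pathway, and the groups of other acyl-CoA dehydrogenases and later steps hold 0. Of all tested genes, 22.8% were called higher and 6.16% lower.

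In uptake and activation of fatty acids 5 of 9 tested genes were higher and 0 lower, against 22.8% higher over all genes, and CD36 was the 1 called under each of the 3 scalings. CD36, a fatty acid translocase and scavenger receptor that macrophages carry in abundance, was 3.58, 6.07 and 1.26 FPKM in the NC pigs and 31.6, 17.6 and 11.1 FPKM in the HFCF pigs. The HFCF pigs lay above all NC pigs, with a log2 difference of 2.55 (standard error 0.60, adjusted p = 0.0202, limma) that lost its call without NC1, HFCF1 or HFCF2 (highest adjusted p 0.0632, limma). The acyl-CoA synthetases ACSL1, ACSL4 and ACSL5, which trap fatty acids as acyl-CoA, had log2 differences of 1.18, 1.03 and 0.81, and the transporter SLC27A4 one of 0.65 (adjusted p from 0.0196 to 0.0457, limma). These 4 calls were lost under each of the 3 scalings, those of ACSL4 and ACSL5 also without NC1 or NC3, that of ACSL1 without these or HFCF1 or HFCF2, and that of SLC27A4 without any library except NC3.

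In the carnitine shuttle the genes around CPT1 and CPT2 split. SLC25A20, the translocase between them, was 6.62, 8.57 and 8.31 FPKM in the NC pigs and 9.80, 14.8 and 17.6 FPKM in the HFCF pigs (log2 difference 0.80, adjusted p = 0.0458, limma), a call that was lost under each of the 3 scalings and without any library except HFCF1. CRAT, the carnitine acetyltransferase that buffers short acyl groups, was 40.4, 35.0 and 27.0 FPKM in the NC pigs and 9.88, 16.6 and 11.97 FPKM in the HFCF pigs. CRAT fell by 1.42 on the log2 scale (standard error 0.24, adjusted p = 0.00672, limma), with no overlap between the groups. CPT1C, a form best known from brain, averaged 0.347 FPKM under chow and 0.672 FPKM under the HFCF diet (adjusted p = 0.0975, limma), and CROT, the carnitine octanoyltransferase of peroxisomes, had a log2 difference of 0.35 (adjusted p = 0.390, limma).

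With the values as deposited, the enzymes of the spiral itself did not pass the test outside ACADM and HADHA. Over all tested genes 28.9% were called, 22.8% higher and 6.16% lower, and the groups below are too small to be set against these shares. Among the other acyl-CoA dehydrogenases 0 of 6 were called by limma, although ACAD10 came close (log2 difference 0.67, unadjusted p = 0.0146, adjusted p = 0.0504), and ACAD11 stood at -0.33 and was called lower with median-ratio scaling and quantile normalization. Among the later steps 0 of 4 were called, with HADH, the short-chain hydroxyacyl-CoA dehydrogenase, lower in all 3 HFCF pigs (13.6 against 9.85 FPKM, log2 difference -0.46, unadjusted p = 0.0199, adjusted p = 0.0619, limma). HADH was called under each of the 3 scalings and without HFCF1. ECHS1 (-0.16), HSD17B10 (0.08) and ACAA2 (0.16) had smaller log2 differences, and ECHS1 was called lower with median-ratio scaling. The steps for unsaturated and odd chains had 0 of 5 calls, with unadjusted p = 0.0466 (limma) for PCCA at -0.44 and a log2 difference of 0.17 for ECI2. PCCA was called lower under each of the 3 scalings (adjusted p from 0.0175 to 0.0406, limma). ETFA, which takes the electrons from the dehydrogenases, had a mean of 5.74 ± 0.56 FPKM under chow and rose to 10.02 ± 0.96 FPKM (SD, n = 3 each, log2 difference 0.79, adjusted p = 0.0127, limma), while its partner ETFB (0.66) and the oxidoreductase ETFDH (0.15) were not called. The call of ETFA was lost under the 3 scalings.

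Peroxisomes shorten very long chains by a route of their own. Of 9 tested genes there, EHHADH, the bifunctional enzyme, was the only one called in limma (log2 difference 1.10, adjusted p = 0.0309), where 28.9% of all tested genes were called. The call of EHHADH was lost under each of the 3 scalings and without any library except NC3. ACOX2 stood at -0.39 (adjusted p = 0.182, limma). Of the ketone body enzymes, ACAT1 had a log2 difference of 0.01, OXCT1 of -0.23 and BDH1 of -0.61, and these were not called by limma (adjusted p from 0.388 to 0.952).

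Malonyl-CoA, the product of acetyl-CoA carboxylase, inhibits CPT1. ACACA, a carboxylase that also feeds fatty acid synthesis, was 15.0, 13.8 and 12.8 FPKM in the NC pigs and 7.90, 4.22 and 4.19 FPKM in the HFCF pigs. All HFCF values of ACACA lay well below the NC values, with a log2 difference of -1.40 (standard error 0.27, adjusted p = 0.0103, limma). PRKAA1, a catalytic subunit of the AMP-activated kinase that inactivates the carboxylase, rose by a log2 difference of 1.13 (adjusted p = 0.0153, limma), a call lost with quantile normalization. MLYCD, which breaks malonyl-CoA down, stood at 0.48 (adjusted p = 0.284, limma), and PRKAA2, the other catalytic subunit, at -0.60 (adjusted p = 0.184, limma). ACACB, the carboxylase isoform tied to CPT1 at the outer membrane, was sought by symbol but not found, so it has no value here.

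Of the pyruvate dehydrogenase kinases other than PDK4, PDK1 was not called (log2 difference -0.14, adjusted p = 0.688, limma), while PDK2 and PDK3 were lower. PDK2 was 28.2, 26.2 and 26.7 FPKM in the NC pigs and 10.3, 12.5 and 15.1 FPKM in the HFCF pigs, a log2 difference of -1.11 (standard error 0.17, adjusted p = 0.00524, limma). PDK3 was 12.6, 14.0 and 16.7 FPKM in the NC pigs and 1.88, 3.66 and 5.67 FPKM in the HFCF pigs, a log2 difference of -2.04 (standard error 0.37, adjusted p = 0.00913, limma). Both fell in every HFCF pig, unlike PDK4. Summed over PDK1, PDK2, PDK3 and PDK4, the kinases came to 59.8, 56.9 and 67.4 FPKM in the NC pigs and 30.4, 57.8 and 42.8 FPKM in the HFCF pigs, and the share of PDK4 in that sum was 12.7%, 5.51% and 4.73% under chow and 11.5%, 48.2% and 23.7% under the HFCF diet. The parts of the dehydrogenase complex PDHB (0.55) and DLAT (0.70) and the pyruvate carrier MPC2 (0.67) had higher values in the HFCF group with adjusted p-values of 0.0387 to 0.0441 (limma). None of these calls held under the 3 scalings, and those of DLAT and MPC2 were lost without any 1 library and that of PDHB without any except NC3.

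Of 12 tested transcription factors and coactivators around PPARA and PPARGC1A, NCOR1 alone was called in limma, where 28.9% of all tested genes were called. NCOR1, a corepressor of nuclear receptors, was 30.9, 31.1 and 29.0 FPKM in the NC pigs and 19.3, 21.5 and 21.2 FPKM in the HFCF pigs, a log2 difference of -0.55 (adjusted p = 0.0182, limma). That call was lost without NC1, NC2 or HFCF2 (highest adjusted p 0.0666, limma). NRIP1, another corepressor, stood at 1.152 (adjusted p = 0.106, limma), with 2.42 FPKM in HFCF1 and 0.663 and 1.03 FPKM in HFCF2 and HFCF3. The sister receptors of PPARA, PPARD (0.20, adjusted p = 0.452) and PPARG (1.37, adjusted p = 0.206, limma), were not called. Of 7 other tested PPAR target genes, VNN1, a pantetheinase, was listed at 0 in NC1, reached at most 0.033 FPKM in the NC pigs and was 0.542, 0.216 and 0.4998 FPKM in the HFCF pigs. VNN1 passed the filter on low values only through the HFCF group, so its call is no support, and its log2 difference ran from 0.47 to 4.08 with the pseudocount. UCP2, an inner membrane carrier, was 2.16 to 2.32 FPKM in the NC pigs and 37.5, 6.05 and 6.09 FPKM in the HFCF pigs (log2 difference 2.26, adjusted p = 0.0427, limma), and its call was lost under the 3 scalings and without NC1, NC2 or NC3. ANGPTL4, PLIN2, PLIN5, UCP3 and FGF21 were not called.

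A group of 17 tested genes of the respiratory chain, the citrate cycle and the outer membrane served as a reference for mitochondria in general. It had a median log2 difference of -0.23, with 1 gene higher (COX5A) and 2 lower (ATP5F1A and OGDH) at an adjusted p under 0.05 in limma, against 22.8% and 6.16% of all genes. With median-ratio scaling 0 were higher and 9 lower, with quantile normalization 1 and 5, and with rescaling to TPM 0 and 6. Lower calls over all tested genes also rose, from 948 as deposited to 1982, 1782 and 1539 under these scalings. The median of the reference group was then -0.59, -0.33 and -0.49. The 9 fatty acid oxidation genes had a median of 0.04 as deposited, and of -0.31, -0.11 and -0.22 under the same scalings.

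The cellular makeup of the tissue differed between the groups, and its part in the values above was not tested. The 11 macrophage markers were all called higher in the HFCF group, against 22.8% of all tested genes. Their summed level was 53.2 to 65.1 FPKM in the NC pigs and 762.2 to 2001 FPKM in the HFCF pigs, highest in HFCF1. C1QC and C1QB, the most abundant of them, averaged 16.1 and 10.4 FPKM under chow and 460.9 and 248 FPKM under the HFCF diet. Of the 9 contractile smooth muscle markers, 6 were called lower and 0 higher, against 6.16% and 22.8% of all tested genes. The sum of the 9 markers was 15971 to 22793 FPKM in the NC pigs and 8037 to 12932 FPKM in the HFCF pigs. ACTA2 and TAGLN were the most abundant of these, with means of 7618 and 5283 FPKM under chow and of 3860 and 3555 FPKM under the HFCF diet. ACTA2 was lower (adjusted p = 0.0356, limma), while TAGLN overlapped between the groups (adjusted p = 0.201, limma). In whole tissue, a change in the number of cells of a type and a change in RNA per cell cannot be told apart. This bears on PPARA, HADHA, CRAT, PDK2, PDK3, ACACA and NCOR1, which were lower together with the smooth muscle markers. It bears equally on the genes called higher, such as ACADM and CD36, which were higher together with the macrophage markers.

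Adipocyte markers varied within the NC group. The sum of the 8 markers found was 221.7, 287.4 and 126.5 FPKM in the NC pigs. It was 93.8 to 119.1 FPKM in the HFCF pigs, and 2 of the 8 (PLIN4 and PNPLA2) were called lower in limma, against 6.16% of all tested genes. PNPLA2 alone was 110.7, 120.6 and 107.5 FPKM in the NC pigs and 54.2, 65.5 and 72.8 FPKM in the HFCF pigs. This 1 gene thus made up most of the sum in NC3 and in the HFCF pigs. LPL, lipoprotein lipase, was 8.96, 13.3 and 0.728 FPKM in the NC pigs and 33.9, 17.2 and 14.4 FPKM in the HFCF pigs, higher without overlap (log2 difference 2.14, adjusted p = 0.147, limma). ADIPOQ, the adipocyte hormone adiponectin, was 39.1, 59.9 and 1.23 FPKM in the NC pigs and 4.08, 0.301 and 4.04 FPKM in the HFCF pigs. NC3, with the least ADIPOQ of its group, had the highest PPARA and HADHA values of the 6 pigs. NC3 also had the lowest smooth muscle sum of the NC pigs (15971 FPKM, against 22793 and 18331 FPKM). Its depth was the highest of the 6 libraries, at 1.37 times that of NC1. These remarks on NC3 rest on 1 library, and the part of adipocyte content, smooth muscle content or depth in its values was not tested. Of 7 endothelial markers 0 were called by limma, against 28.9% of all tested genes. The unadjusted p-values (limma) were 0.0163 for TEK and 0.0456 for KDR, both higher in every HFCF pig. The most abundant endothelial markers, PECAM1 and CDH5, had log2 differences of -0.25 and -0.17. Of the skeletal and heart muscle markers 0 of 4 tested were called by limma, a number too small to be set against the 28.9%. The unadjusted p (limma) of CKM was 0.0303 (log2 difference -1.55), and ACTA1 ran from 0 in HFCF2 and HFCF3 to 5.17 FPKM in HFCF1. The list summed to at most 7.63 FPKM in any pig, and MYL2 was listed at 0 in 5 of 6 libraries and TNNT2 in 4.

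**Figure D5:**
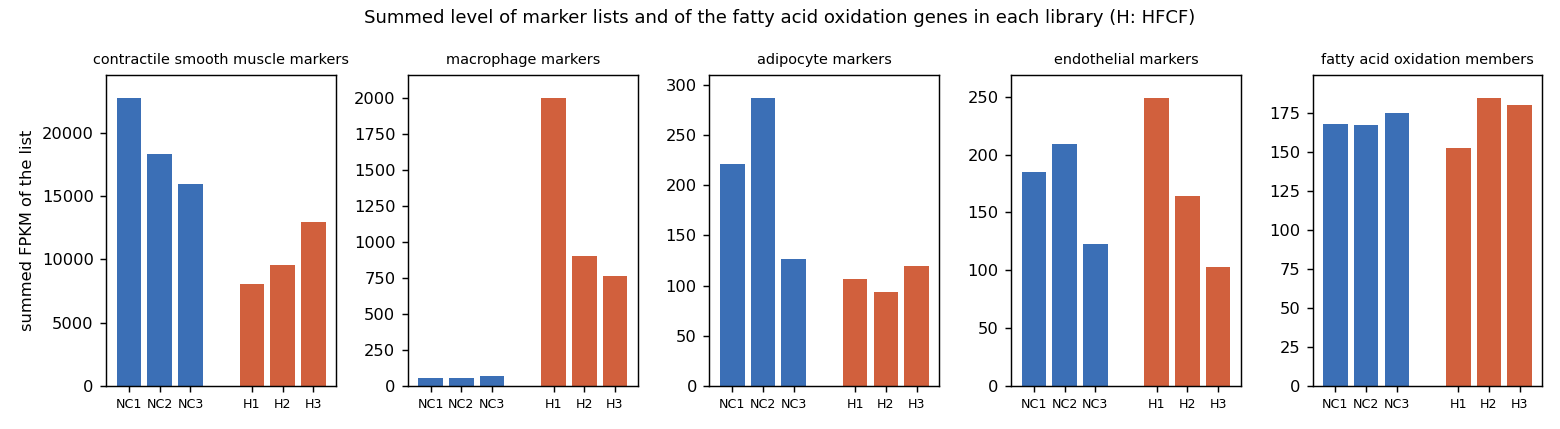
Summed FPKM (vertical axes, linear, from 0) of 4 lists of cell type markers and of the 10 fatty acid oxidation genes in each library (NC1 to NC3 and, as H1 to H3, HFCF1 to HFCF3). The macrophage sum is at least 762.2 FPKM in the HFCF pigs and at most 65.1 FPKM in the NC pigs, the smooth muscle sum is lower in every HFCF pig, and the sum of the fatty acid oxidation genes overlaps between the groups.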

How the data were processed

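Total RNA of abdominal aorta from 3 NC and 3 HFCF pigs was sequenced as paired-end reads. Per the labels and methods, the authors trimmed reads with cutadapt 1.9, checked them with FastQC, used HISAT2 for alignment and StringTie for assembly, and the deposited table holds FPKM for 30477 genes. The methods name an earlier assembly than the reference at hand, so no coordinates are given, and no sequences were used here. Entries of 0.0001 were taken as 0.

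Genes were found by symbol, or by gene ID where the file gave no symbol. Values were analysed as log2(FPKM + 0.1) with limma 3.58.1 in R 4.3.3 (diet alone in the model, eBayes with a variance trend) for genes reaching a mean of 0.1 FPKM, with Benjamini-Hochberg adjustment over all of them. Code was tested on simulated data. All 10 members were named, each with the 1 gene of nearest profile. Named in the wider pathway were the 2 genes of each group with the lowest p (all tested genes in groups of 4 or fewer), and in the marker lists the 2 most abundant. Some genes that this rule covers are not reported here. Other genes, among them the remaining called ones, were named after their values had been seen. The members and lists were chosen with earlier results of these data known. The alternatives were other pseudocounts, filters, scalings, eBayes without a trend, a replicate block, each library left out, and the thresholds of the study for a changed gene.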

Additional observations from a re-analysis of the deposited data

How the results depend on the processing

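The absolute read depth is unknown, 3 libraries a group limit the precision, and PPARGC1A lies too low to be tested. For same-numbered libraries, the correlations of their deviations from the group means were 0.02, -0.08 and -0.07. Of the NC pigs, 0 of 3 correlated best with their own number. With 3 pairs, this check gave no sign of pairing by number but cannot settle whether the numbers pair the pigs. With the replicate block, 2772 genes were called (2232 higher, 540 lower) in place of 4453 (3505 higher, 948 lower), 1 member in place of 2 was lower and HADHA lost its call at the same log2 difference of -0.47, and 11 further pathway genes were called in place of 19, of which 7 were higher.

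Over all genes, 2035 were higher and 1982 lower with median-ratio scaling, 1748 and 1782 with quantile normalization, and 2146 and 1539 with rescaling to TPM. Without 1 library, 2421 to 3596 genes were called, 1979 to 2815 higher and 442 to 786 lower, the fewest of each without NC1. The median log2 difference was -0.0096 with median-ratio scaling and -0.075 with quantile normalization.

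Among the members, 0 were called higher with median-ratio scaling, with rescaling to TPM and by the thresholds of the study, and the study thresholds called 1 member, PPARA, which was lower. Only 1 member was lower with no filter and with eBayes without a trend, HADHA being the one lost at -0.47. Without 1 library, 1 to 2 members were higher and 1 was lower. CPT1A was -0.036 with median-ratio scaling. With median-ratio scaling, quantile normalization and rescaling to TPM, ACADVL was -0.35, -0.12 and -0.25 and HADHB -0.31, -0.11 and -0.22. Leaving out 1 library gave log2 differences of -0.087 to 0.14 for ACADVL (below 0 without NC1, HFCF2 or HFCF3) and of -0.015 to 0.086 for HADHB (below 0 without NC3 or HFCF1). None of these reversed values was called.

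Of the further pathway genes, 12 were called with no filter, with quantile normalization and by the study thresholds, 10 with rescaling to TPM, and 7 to 16 without 1 library. The higher ones were 7 with no filter, 3, 2 and 3 with the scalings, 8 by the study thresholds and 3 to 9 without 1 library. The lower ones were 10 with median-ratio scaling and with quantile normalization. The log2 difference of the CPT1A to CPT1B ratio lay between -0.21 and 0.0033 without 1 library, turning sign without HFCF2. The other 3 ratios kept their sign under 9 of 9 alternatives each. The causes were not tested.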
